A study of Mus musculus with 10 samples.

Results

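H3K27ac was examined at 6 microglia identity genes, Csf1r, Cx3cr1, P2ry12, C1qa, C1qb and C1qc, in the cerebral cortex of mice heterozygous for a Dnmt3a knockout. The members were the regions of the deposited table that overlapped 4 fixed windows in mm9 coordinates, around Csf1r on chromosome 18, Cx3cr1 on chromosome 9, P2ry12 on chromosome 3 and the 3 neighbouring C1q genes on chromosome 4. This rule found 13 of 50898 regions, namely 2 at Csf1r, 2 at Cx3cr1, 6 at P2ry12 and 3 at C1q. The authors' classes put 7 of them among promoter regions (prom) and 6 among enhancer regions (enh). No mm9 annotation was used here, so the windows themselves were not checked and a region is tied to a gene by its window only. In the RefSeq gene order of GRCm38.p6, the protein-coding neighbours are Pdgfrb and Hmgxb3 beside Csf1r, Xirp1 and Ccr8 beside Cx3cr1, and Ephb2 and Epha8 around the C1q cluster. P2ry12 lies inside Med12l there and next to P2ry13, so regions of its window may belong to another gene.

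The tested animals were 5 C57BL/6J mice aged 8 weeks with 1 knockout and 1 intact Dnmt3a allele (Het), and the controls were 5 wild-type (WT) littermates of the same strain and age. Dnmt3a encodes a de novo DNA methyltransferase. Each Het animal had 1 WT littermate: litters 650 (replicate 1, male), 651 (replicate 2, female), 119 (replicate 3, male) and 141 (replicate 4, female), and, called the fifth litter here, a male pair without a shared number in its titles (replicate 5). For Het replicate 5 the description field reads cKO where the genotype field reads heterozygous, and the genotype field was followed. The values are pseudo-counts, read counts that the authors adjusted to 1 common library size. The reads in regions recovered from them were most numerous in Het replicate 2, at 8453140, and fewest in WT replicate 5, at 2771534.

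H3K27ac, acetylation of histone H3 at lysine 27, marks active promoters and enhancers. Microglia are the resident macrophages of the brain and a minority of cortical cells, and the tissue was not sorted, so each value mixes all cortical cells. In such bulk tissue, fewer cells of a type and less acetylation per cell cannot be told apart. The receptor Csf1r carries the signal of CSF1 and IL-34 on which microglia depend for survival. Cx3cr1 is the receptor for the neuronal chemokine fractalkine, and P2ry12 is a purinergic receptor that guides microglial processes towards ATP and ADP. C1qa, C1qb and C1qc encode the 3 chains of C1q, the recognition molecule of the classical complement pathway, which takes part in synapse pruning in the developing brain.

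The stretch of 250 bases before the annotated start is shown for 4 members with an entry in the RefSeq promoter table (GRCm38.p6, minus strand in each case). They are shown because each of the 4 windows held at least 1 promoter-class region and because of the factor PU.1. This factor binds ETS-type sites built on GGAA and is a known regulator of macrophage and microglia genes. Capitals mark GGAA on either strand (TTCC on the other). The positions are of GRCm38.p6 and cannot be set beside the mm9 positions of the regions.
Cx3cr1, chr9:120068297-120068546: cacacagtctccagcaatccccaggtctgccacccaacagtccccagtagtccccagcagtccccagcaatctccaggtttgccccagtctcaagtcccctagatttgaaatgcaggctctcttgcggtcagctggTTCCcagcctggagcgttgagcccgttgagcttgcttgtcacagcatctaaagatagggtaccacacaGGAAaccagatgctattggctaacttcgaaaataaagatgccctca
P2ry12, chr3:59262986-59263235: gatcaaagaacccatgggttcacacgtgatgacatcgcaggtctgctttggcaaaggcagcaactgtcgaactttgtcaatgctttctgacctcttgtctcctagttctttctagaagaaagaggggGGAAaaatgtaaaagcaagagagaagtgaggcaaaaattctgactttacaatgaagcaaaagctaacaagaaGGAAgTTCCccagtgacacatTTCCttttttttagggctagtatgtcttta
C1qb, chr4:136886201-136886450: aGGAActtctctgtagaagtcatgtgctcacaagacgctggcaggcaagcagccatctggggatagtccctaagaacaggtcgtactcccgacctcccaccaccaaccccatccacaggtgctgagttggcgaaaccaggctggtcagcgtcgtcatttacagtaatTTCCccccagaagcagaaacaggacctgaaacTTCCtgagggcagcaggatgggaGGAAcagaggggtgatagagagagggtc
C1qc, chr4:136892915-136893164: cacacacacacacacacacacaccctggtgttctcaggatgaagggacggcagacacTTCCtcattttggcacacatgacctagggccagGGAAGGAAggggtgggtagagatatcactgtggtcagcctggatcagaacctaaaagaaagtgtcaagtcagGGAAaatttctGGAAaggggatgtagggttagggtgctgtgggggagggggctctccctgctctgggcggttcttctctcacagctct

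GGAA occurred 2 times in the Cx3cr1 stretch, 4 times in that of P2ry12, 4 times in that of C1qb and 5 times in that of C1qc. It is a short motif, and 93.4% of 32851 promoters of the table held it in the same 250 bases, with a median of 3 matches. The longer GAGGAA, which contains GGAA, occurred 1 time each in C1qb and C1qc and was held by 23.3% of all promoters. GAGGAAGT, which contains both, occurred in C1qc and was held by 2.44% of all promoters. These matches describe letters in these windows and say nothing of binding.

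The Csf1r window held a wide promoter region at chr18:61263615-61271026 (Csf1r 1, ID prom.7006, 7.41 kb) and a small one at its far edge, chr18:61297752-61298640 (Csf1r 2, prom.7007, 0.888 kb). The Cx3cr1 window held an enhancer region that began left of it, chr9:119943273-119956743 (Cx3cr1 1, enh.44738, 13.5 kb), and the promoter region chr9:119973211-119982173 (Cx3cr1 2, prom.15999, 8.96 kb). The P2ry12 window held, from left to right, the promoter regions chr3:59011270-59015767 (P2ry12 1, prom.9353) and chr3:59022983-59024569 (P2ry12 2, prom.9354), the enhancer regions chr3:59031610-59035453 (P2ry12 3, enh.27392), chr3:59045371-59046307 (P2ry12 4, enh.27393) and chr3:59046342-59048296 (P2ry12 5, enh.27394), and the promoter region chr3:59061821-59067952 (P2ry12 6, prom.9355). The C1q window held the enhancer region chr4:137428635-137436601 (C1q 1, enh.31200, 7.97 kb), the promoter region chr4:137437510-137449135 (C1q 2, prom.10878, 11.6 kb) and the enhancer region chr4:137451496-137456212 (C1q 3, enh.31201, 4.72 kb).

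Acetylation at the widest promoter region of each window was spread over a long stretch at a low level per length. These 4 were picked by width, and no annotation used here says which is a gene's main promoter. The promoter regions Csf1r 1, Cx3cr1 2, P2ry12 6 and C1q 2 were wider than 83.1%, 87.1%, 77.9% and 91.6% of all promoter regions, whose median width was 3057 bp, while P2ry12 1 was wider than 67.4%, Csf1r 2 was wider than 1.08% and P2ry12 2 lay between them at 1586 bp. The mean signal per length of the widest 4 was 17.5, 14.9, 17.7 and 16.4 pseudo-counts per kb, against a median of 31.2 over all 16529 promoter regions. By signal per length all 7 promoter regions of the members lay low in their class, from percentile 2.69 for P2ry12 2 to percentile 24.9 for Csf1r 2. The enhancer regions did not share this: their signal per length ran from percentile 4.68 for P2ry12 5 to percentile 83.9 for P2ry12 3, and the median enhancer region had 17.8 pseudo-counts per kb. The enhancer region Cx3cr1 1 was wider than 97.7% and carried more total signal than 95.5% of enhancer regions. Recovered reads per library ran from 89 to 341 in Cx3cr1 1, from 107 to 313 in C1q 2 and from 48 to 198 in Csf1r 1, but only from 6 to 33 in P2ry12 4 and from 10 to 34 in Csf1r 2, so the values of the small regions are coarse.

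The first comparison asked whether H3K27ac at these genes differs between Het and WT littermates. None of the 13 regions passed the limma test at an adjusted p under 0.05, and none had an unadjusted p under 0.05. Over all 50898 regions the same fit called 0.00196% and gave an unadjusted p under 0.05 to 2.10%. The litter block also called 0 of the 13, against 0.00589% of all regions. It gave none of them an unadjusted p under 0.05, against 4.63% of all regions. Limma-voom on the recovered reads called 0 of the 13, against 1 of all 50898 regions. The authors' deposited table gives each of the 13 an FDR of 1, and its lowest p among them is 0.189 at P2ry12 4. Of all 50898 regions, only 2 have an FDR under 0.05 there. In all 13 regions the values of Het and WT animals overlapped, while over all regions 0.375% did not overlap.

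Csf1r, the survival receptor, had nearly equal acetylation in the genotypes. Its wide promoter region, Csf1r 1, had 129, 131, 127, 139 and 116 pseudo-counts in Het replicates 1 to 5, against 138, 113, 159, 141 and 102 in WT replicates 1 to 5. The Het values lay within the range of the WT values. The means were 128 ± 8.58 in Het and 130.5 ± 23.0 in WT (SD, n = 5 each), the log2 fold change was -0.0069 (SE 0.12, limma adjusted p 1.00), and the 95% interval of the fold ran from 0.846 to 1.17. Csf1r 2 averaged 18.4 ± 5.63 in Het and 19.0 ± 6.76 in WT, and its interval, from 0.683-fold to 1.41-fold, was wide at this depth.

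Cx3cr1, the fractalkine receptor, showed the same picture in both of its regions. The promoter region Cx3cr1 2 had 146, 133, 124, 156 and 105 pseudo-counts in Het replicates 1 to 5, against 122, 113, 170.3, 154 and 115 in WT replicates 1 to 5. The enhancer region Cx3cr1 1 had 221, 219, 246, 269.5 and 192 in Het replicates 1 to 5, against 201, 193, 269.1, 274 and 185 in WT replicates 1 to 5. In both regions and both genotypes the animal of the fifth litter was the lowest or second lowest of its group, and each region was higher in Het in 3 of 5 litters. The log2 fold change was -0.014 (SE 0.12) for the promoter and 0.045 (SE 0.11) for the enhancer region, with intervals of 0.835-fold to 1.18-fold and 0.88-fold to 1.21-fold (limma adjusted p 1.00 for each).

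P2ry12, the purinergic receptor, held the members with the largest fold changes, and none passed. The promoter region P2ry12 6 had 124, 102, 133, 106 and 89.5 pseudo-counts in Het replicates 1 to 5, against 103, 122, 125, 111 and 70.9 in WT replicates 1 to 5. The Het animal was the higher one in 3 of 5 litters, with a log2 fold change of 0.068 (SE 0.13). The weakest region, P2ry12 4, had 22.6, 22.8, 12.6, 13.4 and 11.3 in Het replicates 1 to 5, against 13.4, 10.9, 17.0, 9.32 and 12.3 in WT replicates 1 to 5. Only Het replicates 1 and 2 lay above all WT animals. Its log2 fold change of 0.33 (SE 0.28, limma unadjusted p 0.240, adjusted p 1.00) was larger in size than in 95.8% of all regions, and its interval ran from 0.851-fold to 1.87-fold. The enhancer regions P2ry12 3 and P2ry12 5 had 0.13 (SE 0.13) and 0.21 (SE 0.22), each higher in Het in 4 of 5 litters, and the promoter regions P2ry12 1 and P2ry12 2 had -0.020 (SE 0.13) and 0.061 (SE 0.24).

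The C1q cluster varied widely between animals in both genotypes. Its promoter region C1q 2 had 223, 165, 145, 136 and 280.0 pseudo-counts in Het replicates 1 to 5, against 208, 183, 190.1, 139.6 and 239 in WT replicates 1 to 5. Both animals of the fifth litter were the highest of their groups and both animals of litter 141 the lowest. The means were 189.8 ± 60.8 in Het and 192 ± 36.3 in WT (SD, n = 5 each), with a log2 fold change of -0.049 (SE 0.13) and an interval of 0.807-fold to 1.16-fold. The flanking enhancer regions had 0.080 (SE 0.11) for C1q 1 and 0.12 (SE 0.14) for C1q 3, and the limma adjusted p was 1.00 for each of the 3. Over the 13 members the median log2 fold change was 0.061 and 8 were above 0, against a median of 0.0092 and 53.0% above 0 over all regions. The median SE was 0.13 for the members and 0.15 for all regions.

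**Figure D1:**
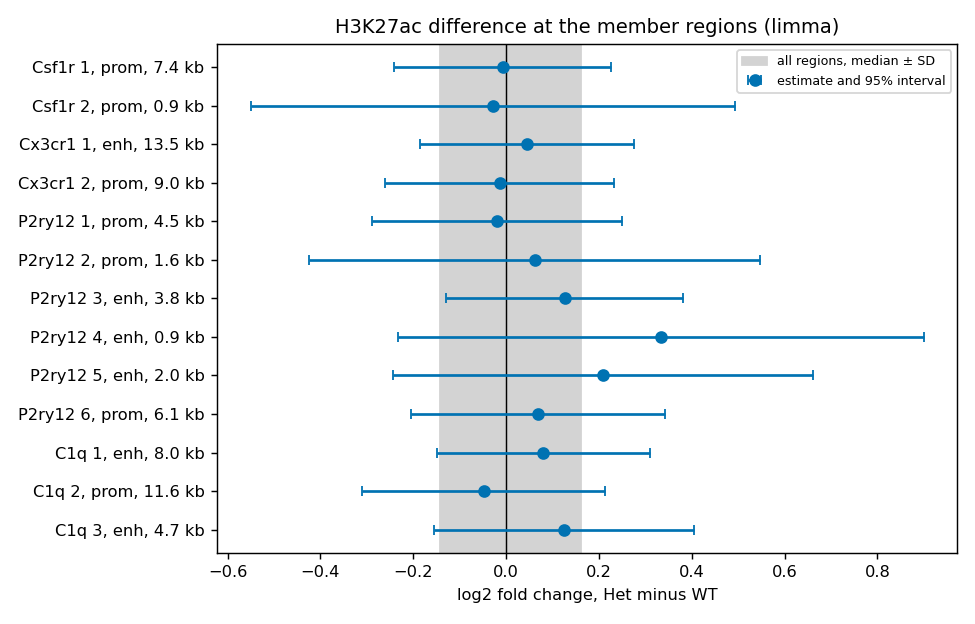
Log2 fold change of H3K27ac, Het minus WT, for the 13 regions of the microglia gene windows (labelled by window, order, class and width in kb), with points for the limma estimate, bars for its 95% interval and a grey band for the median ± SD of all 50898 regions. Each interval spans 0, and the widest belongs to P2ry12 4, with an estimate of 0.33.

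Summing the regions of a window gave 1 value per locus and animal, described here without a test. Csf1r had 155, 147, 146, 151 and 135 pseudo-counts in Het replicates 1 to 5, against 166, 136, 172, 153 and 122 in WT replicates 1 to 5. Cx3cr1 had 367, 352, 369.9, 425 and 297 in Het, against 323, 306, 439, 428 and 299 in WT, in the same order. The Het values lay within the WT range at Csf1r, and at Cx3cr1 only the Het animal of the fifth litter, at 297, lay below the lowest WT animal, at 299.

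P2ry12 had summed values of 368, 331, 349.8, 348 and 295 in Het replicates 1 to 5, against 299, 356, 361, 307 and 266 in WT replicates 1 to 5. C1q had 456, 396, 341, 349.8 and 594 in Het replicates 1 to 5, against 442, 372, 431, 325 and 494 in WT replicates 1 to 5. The fifth litter was the lowest litter at the 3 receptor loci and the highest at C1q. From the lowest to the highest animal the sums differed 1.41-fold at Csf1r, 1.48-fold at Cx3cr1, 1.38-fold at P2ry12 and 1.83-fold at C1q.

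Het minus WT differences within litters changed sign from litter to litter. For C1q they were 0.046, 0.088, -0.34, 0.11 and 0.27 on the log2 scale for litters 650, 651, 119, 141 and the fifth, and for Cx3cr1 0.19, 0.20, -0.25, -0.011 and -0.0089. Litter 119 was the one in which all 4 loci were lower in Het. Averaged over litters, the difference was -0.016 (SE 0.069) for Csf1r, 0.024 (SE 0.082) for Cx3cr1, 0.096 (SE 0.075) for P2ry12 and 0.034 (SE 0.10) for C1q (n = 5 litters each), every one smaller than the spread between litters. Leaving out 1 litter at a time gave -0.058 to 0.037 for Csf1r, -0.021 to 0.092 for Cx3cr1, 0.045 to 0.15 for P2ry12 and -0.025 to 0.13 for C1q. The sign thus depended on 1 litter at 3 of the 4 loci: Csf1r was above 0 without litter 119 (and 0.0032 without litter 650), Cx3cr1 below 0 without litter 651 (and -0.016 without litter 650) and C1q below 0 without the fifth litter.

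**Figure D2:**
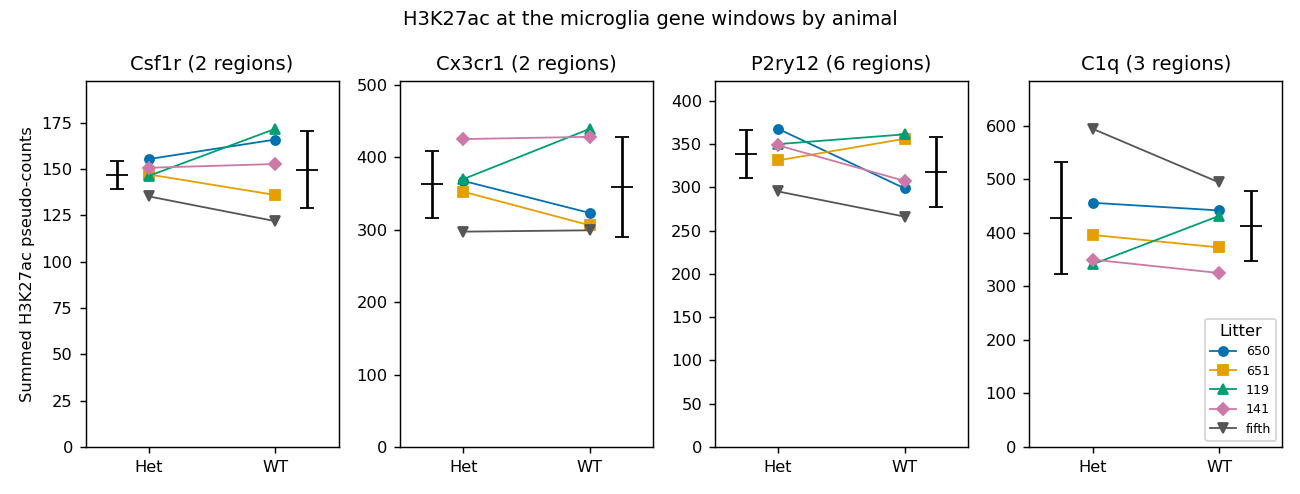
Summed H3K27ac pseudo-counts of the Csf1r, Cx3cr1, P2ry12 and C1q windows for each animal, Het left and WT right, with a line joining the animals of a litter and black bars for mean ± SD (n = 5 each). The genotypes overlap at every locus, and the fifth litter is lowest at the receptors and highest at C1q, with 594 in Het and 494 in WT.

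Most of the spread lay between litters. Of the sum of squares of log2 values over the 10 animals, 74.3% for Csf1r, 84.0% for Cx3cr1, 63.7% for P2ry12 and 84.1% for C1q lay between litters, as a description. The same share had a median of 69.7% over the 13 single regions and of 59.9% over all 50898 regions, and 10 of the 13 lay above the latter value. The enhancer region Cx3cr1 1 stood at 91.7% and the promoter region C1q 2 at 89.3%, beyond 97.1% and 95.01% of all regions. C1q 2 also had a larger spread over animals than 99.3% of regions in its decile of mean signal, with an SD of 0.35 on the log2 scale, against percentile 90.0 for P2ry12 6, 85.6 for P2ry12 2, 79.2 for Cx3cr1 2 and 55.3 for Csf1r 1, and 18.9 to 89.6 for the other 8 members.

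**Figure D3:**
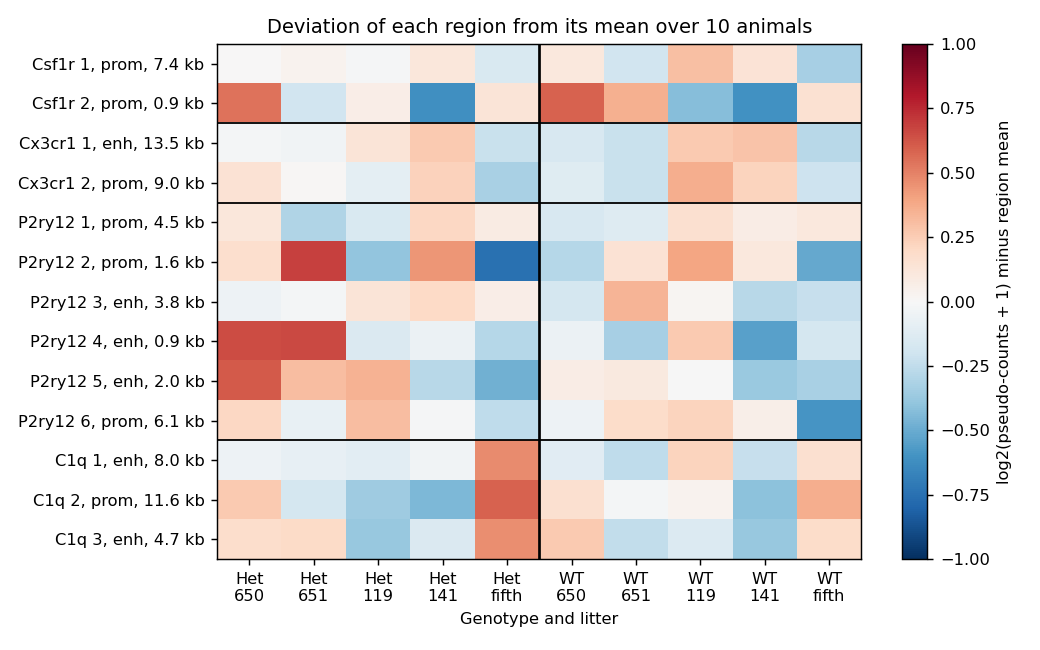
Deviation of log2(pseudo-counts + 1) from the mean over 10 animals for each of the 13 regions (rows, labelled by window, order, class and width in kb), with Het animals left and WT animals right, each by litter. The 3 C1q regions are high in both animals of the fifth litter, where Csf1r 1 and both Cx3cr1 regions are low.

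The second question was whether the loci vary together across animals. No pair of loci passed after adjustment over the 6 pairs. Across all 10 animals r was above 0 between the receptors and below 0 between each receptor and C1q, with most of the spread lying between litters. Over 10 animals, Csf1r and Cx3cr1 sums correlated with r = 0.67 and rho = 0.71 (permutation p = 0.0321 and 0.0273, adjusted p = 0.185 and 0.130). With the mean of log2 values over regions in place of the log2 of their sum, r was -0.43, the small region Csf1r 2 then weighing as much as Csf1r 1. Cx3cr1 and C1q had r = -0.61 and rho = -0.66 (permutation p = 0.0618 and 0.0434, adjusted p = 0.185 and 0.130). Both values from the sums kept their sign without the 2 animals farthest from the median of the first locus, at r = 0.43 without WT replicates 5 and 3, and at r = -0.69 without WT replicate 3 and Het replicate 5. Littermates are not fully independent, so these p-values are too small, and 5 litters give too few differences for a correlation within litters. The Het minus WT difference had the same sign at both loci in 3 of 5 litters for Csf1r with Cx3cr1 and in 3 of 5 for Cx3cr1 with C1q, so the opposite course of Cx3cr1 and C1q across animals was seen within only 2 of 5 litters.

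P2ry12 had r = 0.52 and rho = 0.49 with Csf1r (permutation p = 0.130 and 0.155, adjusted p = 0.194 and 0.233), and r = 0.52 and rho = 0.55 with Cx3cr1 (permutation p = 0.122 and 0.106, adjusted p = 0.194 and 0.212). The relation with Csf1r rested on WT replicates 5 and 3, without which r was -0.11, while that with Cx3cr1 was 0.36 without WT replicate 3 and Het replicate 5. C1q had r = -0.45 and rho = -0.31 with P2ry12 (permutation p = 0.191 and 0.388, adjusted p = 0.230 and 0.466), which became 0.17 without the fifth litter, whose animals were the 2 farthest. Csf1r and C1q had r = -0.28 and rho = -0.20 (permutation p = 0.433 and 0.585, adjusted p = 0.433 and 0.585), with r = -0.20 without WT replicates 5 and 3. Within litters, the differences had the same sign in 2 of 5 for P2ry12 with each of Csf1r and Cx3cr1, in 4 of 5 for P2ry12 with C1q and in 3 of 5 for Csf1r with C1q. Without both animals of the fifth litter, Csf1r and C1q had r = 0.56 and Csf1r and P2ry12 r = -0.21. Csf1r and Cx3cr1 then had r = 0.44, Cx3cr1 and C1q r = -0.28 and Cx3cr1 and P2ry12 r = 0.12.

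Set against all 50885 regions outside the windows, the r of Csf1r with the Cx3cr1 sum was higher than its r with 98.7% of them, and that of Cx3cr1 with Csf1r higher than with 96.5%. The r of Cx3cr1 with C1q lay at percentile 11.5 and that of C1q with Cx3cr1 at percentile 9.82. Region by region, across 10 animals, Csf1r 1 correlated with the Cx3cr1 promoter region at r = 0.83 and with the Cx3cr1 enhancer region at r = 0.81, and the Cx3cr1 regions with each other at r = 0.88. The 3 C1q regions correlated with each other at 0.61 to 0.81. The 6 P2ry12 regions did so less closely, with a median r of 0.19 over 15 pairs and a range of -0.47 to 0.71. The small region Csf1r 2 went against Csf1r 1 (r = -0.49) and against Cx3cr1 1 (r = -0.77). Over the 58 pairs of regions from different loci the median r was -0.028, and 27 were above 0. These are descriptions: the points share libraries, litters and the scaling of each library.

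The libraries differed in how far signal was concentrated in strong regions. C1q sums ran against this concentration, but the relation did not pass after adjustment. The strongest 5% of regions held 28.2, 31.0, 33.2, 32.4 and 29.5% of the signal in Het replicates 1 to 5, against 30.4, 30.1, 31.5, 33.6 and 30.5% in WT replicates 1 to 5. C1q sums correlated with this share at r = -0.75 and rho = -0.79 (permutation p = 0.0122 and 0.00879, adjusted p = 0.0976 and 0.0703 over 8 relations), and at r = -0.76 without WT replicate 4 and Het replicate 1. Cx3cr1 had r = 0.60 and rho = 0.70 (permutation p = 0.0701 and 0.0311, adjusted p = 0.280 and 0.124), and r = 0.74 without the same 2 libraries. Csf1r and P2ry12 had r = 0.17 and 0.022 with it (permutation p = 0.653 and 0.952, adjusted p = 0.914 and 0.952), and rho of 0.16 and -0.042, and without the same 2 libraries r was 0.32 and 0.55. None of the 8 relations, 4 of them with reads in regions, passed after adjustment. With reads in regions, r was 0.38 for Csf1r, 0.040 for Cx3cr1, 0.15 for P2ry12 and -0.15 for C1q. Without WT replicate 5 and Het replicate 2, these values were -0.041, -0.38, -0.65 and 0.18. The part of signal concentration in the opposite course of Cx3cr1 and C1q across animals was not tested. Over all regions r with this share had a median of -0.33 and ran from -0.81 at percentile 5 to 0.77 at percentile 95. C1q 2, at -0.82, lay just beyond the lower of these and Cx3cr1 1, at 0.70, inside the upper.

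**Figure D4:**
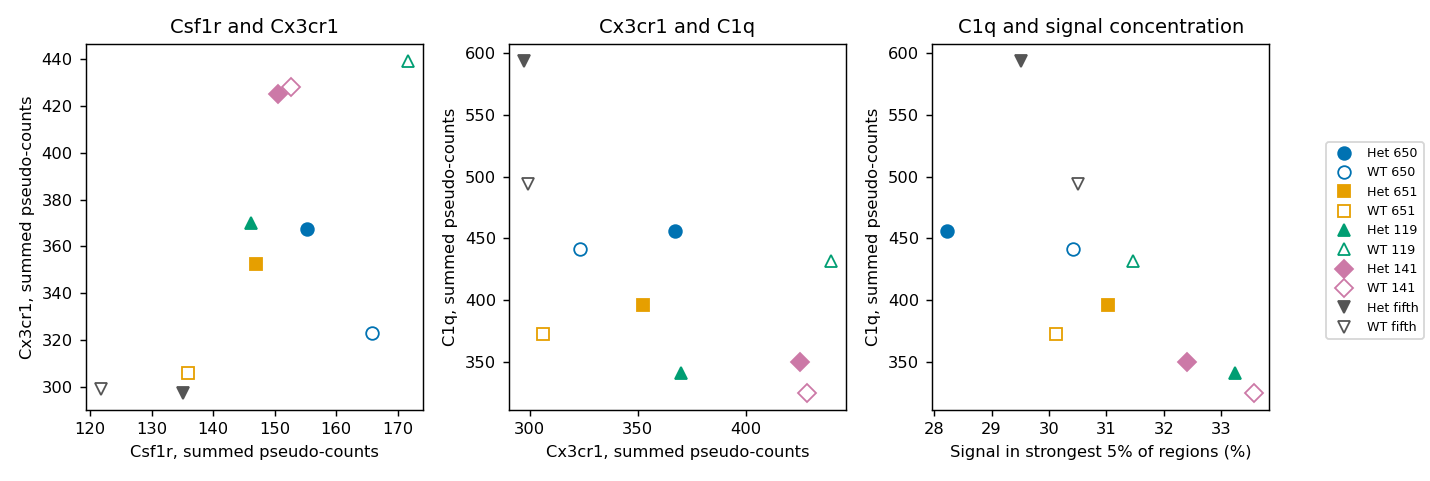
Summed pseudo-counts per animal for Csf1r against Cx3cr1 (left), Cx3cr1 against C1q (middle) and signal concentration, as the percent of signal in the strongest 5% of regions, against C1q (right), filled symbols for Het and open for WT, 1 symbol shape and colour per litter. The points rise from left to right in the left panel (r = 0.67) and fall in the other panels (r = -0.61 and -0.75).

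The nearest region outside the window shared the course of the locus on 1 side at 3 of the 4 loci. At C1q and Cx3cr1 the flanking region on the other side lay closer to the members, and at Csf1r it lay farther away. The promoter region chr4:137468515-137470546, 12.3 kb right of C1q 3, correlated with the C1q sum at r = 0.82 over 10 animals, higher than 95.02% of all regions did, and had 31.2 ± 9.04 pseudo-counts in Het and 35.3 ± 10.5 in WT (SD, n = 5 each). The promoter region chr9:120018930-120020858, 36757 bp from the nearest member, had r = 0.77 with the Cx3cr1 sum (percentile 98.8). The enhancer region chr18:61332530-61333404, 33890 bp from the nearest member, had r = 0.69 with the Csf1r sum (percentile 98.9). It was weak, at 16.4 ± 2.61 pseudo-counts in Het and 12.7 ± 3.64 in WT. On the left side r was -0.12 for C1q with the promoter region chr4:137417069-137427559 (1076 bp from the nearest member). It was 0.020 for Cx3cr1 with the enhancer region chr9:119935929-119938770 (4503 bp) and 0.19 for Csf1r with the promoter region chr18:61200171-61221990 (41625 bp). P2ry12 had -0.025 with the enhancer region chr3:59007745-59010385 on the left (885 bp) and -0.046 with the enhancer region chr3:59115750-59117200 on the right (47798 bp).

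The mean of the 4 standardised locus profiles was led by the receptors: it correlated with the sums of Csf1r, Cx3cr1, P2ry12 and C1q at 0.88, 0.73, 0.73 and -0.16 over 10 animals. Among 45945 other regions with a mean of at least 20 pseudo-counts, the 5 most like it were the enhancer regions chr14:68651546-68654064 (r = 0.92), chr7:73230509-73235333 (r = 0.92), chr12:87216060-87225699 (r = 0.92) and chr7:124187686-124189155 (r = 0.91) and the promoter region chr16:33829160-33838239 (r = 0.91). They were picked as the highest of all, so the size of these values follows from the choice.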

How the data were processed

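H3K27ac ChIP-seq libraries of 10 cortices were used, grouped by their genotype labels. The submitters' processing notes name Bowtie2, edgeR and the build mm9; tool versions and the way regions were called and classed are not stated in the sources at hand. The authors deposited a signal for each region and library, named pseudo-counts in the file headers. The deposited table also holds, per the file headers, the authors' log2 fold change, log2 CPM, p-value and FDR. Their adjustment equalises depth and would hide a uniform change.

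Whole reads were recovered by inverting the negative binomial quantile adjustment around each genotype's mean. The dispersion that fitted the values was 0.0151. Of the results, 100% lay within 0.1 read of a whole number, and 9 values deposited as 0 were taken as 0 reads. The reads gave depth and a limma-voom alternative. The deposited values already carry the genotype means.

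The values are not counts, so the fit was limma 3.58.1 (trend, robust; R 4.3.3) on log2(value + 1), with terms for sex and genotype, over all 50898 regions. Benjamini-Hochberg adjustment ran over all of them, with a threshold of 0.05. Fold changes on this scale understate changes of weak regions. Correlations used 100000 permutations, two-sided, adjusted over 6 pairs of loci and over 8 relations with library features. The labels call the pairs littermates; over all regions, the deviations of littermates from their group means had correlations of 0.23, 0.12, 0.080, 0.36 and 0.42 (replicates 1 to 5). Both the recovery and the limma fit were first tested on simulated data. Promoter stretches were taken for 4 of the 6 genes. Promoter entries on chromosome 18 were left out for the members, so any entry for Csf1r would not have been used.

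Every region in the windows is named, as are the nearest region on each side of a window and the 5 regions most like the mean locus profile. The members and lists were chosen with earlier results of these data known. The Dnmt3a gene itself was not analysed here. Other microglia genes and markers of other cell types need an mm9 annotation and were not analysed here, so the tissue label was not checked against markers. Alternatives were other scalings, pseudocounts of 0.5 and 5, a minimum mean of 20, the litter block, no sex term, limma-voom, deviations from genotype means, mean log2 values and leaving out libraries. Leaving out litters, CPM of recovered reads, and other scalings and pseudocounts for the locus sums were added after seeing the data.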

Additional observations from a re-analysis of the deposited data

Results flagged for a closer look

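Of 34 groups of 5 libraries examined for a value far from the others (13 regions and 4 locus sums in each genotype), 1 stood out, where chance gives about 1 in 20. Het replicate 5 had 189.6 pseudo-counts at the enhancer region C1q 1 (chr4:137428635-137436601), against 127 to 133 in the other Het libraries. Without this library the log2 fold change of the region, 0.080 with all animals, was -0.011.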

How the results depend on the processing

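No member region passed in any setting run. A minimum mean of 20 left 11 members to test, without Csf1r 2 and P2ry12 4. There 0 of 11 had an unadjusted p under 0.05, against 2.05% of the 45956 regions tested. In the other settings 0 of 13 did, except 1 of 13 (C1q 3, adjusted p 0.892) without Het replicate 3. Without that library 5.44% of all regions did, against 2.10% with all libraries. In the settings with 0 of 13, the share of all regions ran from 1.67% (without WT replicate 3 or 4) to 4.63% (litter block). No fold change of a member changed sign under another scaling, pseudocount, filter, covariate or test. The replicate block (litter in place of sex) left all 13 fold changes as they were and changed no call among them. Over the whole table the count of 1 called region became 3 with the litter block, 0 without the sex term and 0 to 1 without single libraries. Leaving out single libraries turned the sign of 9 members, with log2 fold changes from -0.095 to 0.078 for Csf1r 1, -0.20 to 0.16 for Csf1r 2, -0.039 to 0.14 for Cx3cr1 1, -0.10 to 0.093 for Cx3cr1 2, -0.097 to 0.058 for P2ry12 1, -0.039 to 0.24 for P2ry12 2, -0.076 to 0.15 for P2ry12 6, -0.011 to 0.15 for C1q 1 and -0.17 to 0.089 for C1q 2. For Csf1r and Cx3cr1, r was 0.80 with median-of-ratios scaling (adjusted permutation p = 0.0412), 0.88 without litter 650 (adjusted permutation p = 0.00228) and 0.57 to 0.87 without single libraries (adjusted permutation p = 0.00834 without WT replicate 1); over these and the other settings the sign turned only with mean log2 values, at -0.43, where the small region Csf1r 2 has equal weight. That setting also gave 0.33 for Csf1r and C1q. The permutation p-values here were adjusted over the 6 pairs within each setting and not over settings, and littermates are not fully independent, so they are too small. Without the 2 farthest animals r was -0.11 for Csf1r and P2ry12 and 0.17 for P2ry12 and C1q. Without the fifth litter it was -0.21 for Csf1r and P2ry12, 0.56 for Csf1r and C1q and 0.17 for P2ry12 and C1q. For Csf1r and Cx3cr1 it was 0.44 without that litter (adjusted permutation p = 0.760), for Cx3cr1 and C1q -0.28 and for Cx3cr1 and P2ry12 0.12. The cause was not tested. Regions with few reads, such as P2ry12 4 and Csf1r 2, have the widest intervals of the fold change.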

Other observations

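The library descriptions follow 3 naming styles, 1 for litters 650 and 651, 1 for litters 119 and 141 and 1 for the fifth litter; whether these were prepared apart is not stated. Cx3cr1 sums ran from 306 to 367 in the first style, from 369.9 to 439 in the second and from 297 to 299 in the third. In the same order, Csf1r sums ran from 136 to 166, from 146 to 172 and from 122 to 135. P2ry12 sums ran from 299 to 368, from 307 to 361 and from 266 to 295. C1q sums ran from 372 to 456, from 325 to 431 and from 494 to 594. The percent of signal in the strongest 5% of regions ran from 28.2 to 31.0%, from 31.5 to 33.6% and from 29.5 to 30.5%. Each litter has 1 naming style, so style and litter cannot be told apart with 10 libraries, and the part of this share was not tested. The range of the share in the third style lay within that of the first. C1q sums averaged 459.6 ± 83.0 in males (SD, n = 6) and 361 ± 30.5 in females (SD, n = 4), and Cx3cr1 sums 349 ± 54.4 in males and 378 ± 59.4 in females. The sexes are different litters, and no test of sex was made.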
